A study of Rattus norvegicus with 12 samples.

Results

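A group of 9 genes of the oligodendrocyte lineage were followed in neuron-enriched cultures of rat cerebellum, with and without acetamiprid (ACE), a neonicotinoid insecticide. They were Mbp, Mog, Mag, Cnp, Mobp, Olig1, Olig2, Sox10 and Pdgfra. Every gene probe whose gene name equalled one of these 9 names was taken, which gave 14 of the 30367 gene probes and 9 of the 26214 gene names on the array. The cultures were made from Sprague-Dawley rats at postnatal day 1 and harvested at 16 days in vitro. From day 2 both groups received 0.001% of the solvent dimethyl sulphoxide, alone in the 6 control cultures and with 1 µM ACE in the 6 ACE cultures. Part of the medium was renewed every 2 days. All cultures had 1% serum for the first 8 days and serum-free medium afterwards. Each of the 6 experiments used pooled cells of several littermates, here called a lot, and each lot gave 1 control and 1 ACE culture with the same replicate number. The independent units are therefore the 6 pools of cells, and no culture was of purified oligodendrocytes.

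Oligodendrocytes are the cells that wrap axons of the central nervous system in myelin. Precursors marked by the PDGF receptor alpha divide and migrate, and under the control of Olig2, Olig1 and Sox10 they leave the cell cycle and switch on the genes of myelin proteins and lipids. In the rat cerebellum this maturation runs mainly through the first weeks after birth. Myelin is a stack of membrane layers held together by proteins such as myelin basic protein.

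On each of the 12 arrays, all 14 probes were brighter than background by the limit of the extraction software. The cultures therefore held measurable RNA of precursor, lineage and mature genes in every lot and in both groups. Among neuron markers, 7 of 8 genes were matched on the array and 8 of their 9 tested probes were well above background on all 12 arrays. Astrocyte markers (15 of 15 tested probes) and microglia markers (11 of 11) were also well above background throughout, so the RNA came from mixed cultures. In such bulk RNA, fewer cells of a type and less RNA per cell cannot be told apart.

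Each probe is a 60-base oligonucleotide, and its letters decide which part of a transcript was measured. The probes of 3 genes are shown because Cnp had the only member probe with an unadjusted p under 0.05 and a lower signal in ACE, while Mobp and Olig2 were each read by several probes. No part of these probes is set in capitals.
Cnp: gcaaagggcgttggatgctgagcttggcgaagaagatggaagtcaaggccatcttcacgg
Mobp probe 1: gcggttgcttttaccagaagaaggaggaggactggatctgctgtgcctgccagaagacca
Olig2 probe 1: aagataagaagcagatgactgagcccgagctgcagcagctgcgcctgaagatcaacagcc
Where a gene had several probes, they are numbered along the direction of transcription by the positions deposited with the array, on rat build rn4. The Cnp probe lay at chr10:89524880-89524939 and Mobp probe 1 at chr8:125135770-125135829. Olig2 probe 1 lay at chr11:31206731-31206790. Exons and untranslated regions were not assigned, because the annotation used here is of another build.

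Culture lots differed in every oligodendrocyte gene by more than ACE and control did. Signals are log2 values after quantile normalisation between the 12 arrays, so a difference of 1 is a 2.0-fold difference. The range of the 6 lot means ran from 0.78 (Pdgfra) to 1.70 (Mobp probe 1), or 1.71-fold to 3.24-fold, with a median of 1.09 over the 14 probes. The median range over all tested probes was 0.76. The lot accounted for 93.9% to 99.6% of the squared deviations of a member probe over the 12 arrays (median 97.7%), against a median of 92.0% over all tested probes.

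**Figure D1:**
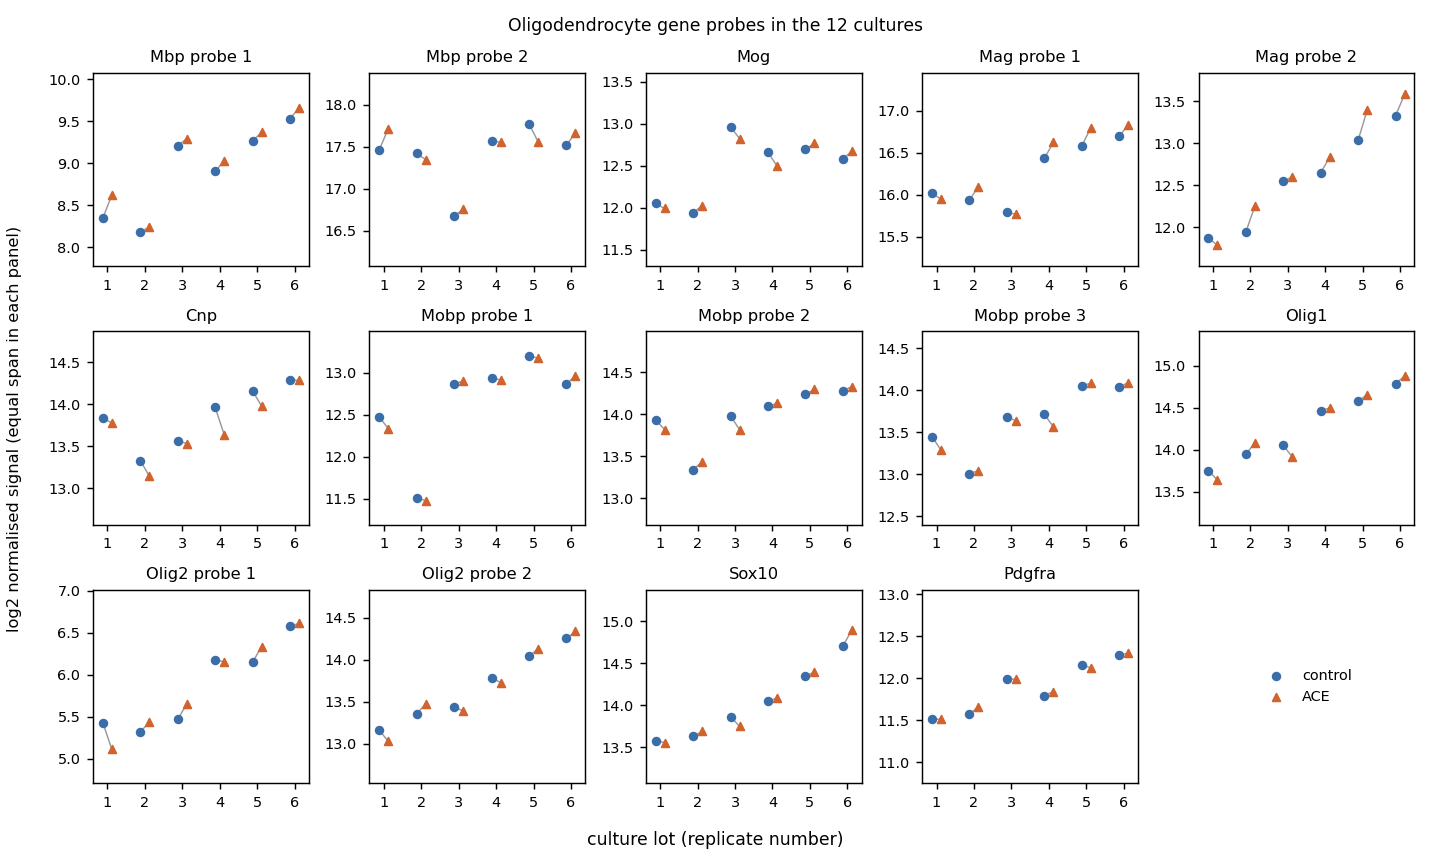
Log2 normalised signal (vertical axis, equal span in each panel) of the 14 probes against culture lot (horizontal axis), with blue circles for control, orange triangles for ACE and a grey line joining the cultures of a lot. Lot 5 or lot 6 is highest for 13 of 14 probes, and the line within a lot is short beside the spread between lots.

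Among the transcription factors, lot 1 was lowest and lot 6 highest with every probe. Olig1 and Olig2 are neighbouring genes for basic helix-loop-helix factors that specify the lineage, and Sox10 is a high-mobility-group factor that drives myelin genes. The mean of the control and ACE signal of Olig2 probe 2 was 13.09 in lot 1, 13.41 in lots 2 and 3, 13.76 in lot 4, 14.08 in lot 5 and 14.29 in lot 6. The dim Olig2 probe 1 followed the same order, from 5.27 in lot 1 to 6.59 in lot 6, and the probes of Olig2 correlated at r = 0.96 over the 12 arrays. Lots 2 and 3 did not differ for Olig2 probe 2 beyond the spread within a lot, while lots 1 and 6 lay furthest apart. Sox10 went from 13.57 in lot 1 to 14.80 in lot 6. Olig1 went from 13.70 in lot 1 to 14.83 in lot 6, with lots 2 (14.01) and 3 (13.98) again close together. Olig1 lay at chr11:31246213-31246272 and Sox10 at chr7:117138840-117138899.

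Pdgfra, the receptor for platelet-derived growth factor on precursors and also on fibroblasts, had the narrowest range. Its lot means were 11.51, 11.62, 11.99, 11.82, 12.14 and 12.29 for lots 1 to 6. Lot 6 was again highest and lot 1 lowest, but lot 3 stood above lot 4. The probe lay at chr14:35369708-35369767 on the minus strand and was printed as 10 spots on each array.

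Mobp, Mog and Cnp departed from that order in particular lots. Mobp, which encodes a small basic protein of compact myelin, had its lowest value in lot 2 with each of its 3 probes. Its probe 1 measured 11.51 (control) and 11.48 (ACE) in lot 2, a mean of 12.41 in lot 1 and between 12.89 and 13.19 in the other lots. Mog, a glycoprotein of the outermost myelin surface, was at 12.02 and 11.98 in lots 1 and 2 and between 12.58 and 12.89 in lots 3 to 6, with lot 3 highest. The Mog probe lay at chr20:1611776-1611835. Cnp, a cyclic nucleotide phosphodiesterase of non-compact myelin, had 13.24 in lot 2 and 14.29 in lot 6, with lots 1 (13.81) and 4 (13.80) close together.

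Mag and Mbp each had probes that did not follow one another fully. Mag encodes an adhesion protein of the innermost myelin layer facing the axon. Mag probe 2 went from 11.83 in lot 1 to 13.45 in lot 6, while Mag probe 1 was lowest in lot 3 (15.78) and highest in lot 6 (16.76). The Mag probes lay 24 bases apart, at chr1:85954601-85954660 and chr1:85954517-85954576 on the minus strand, and correlated at r = 0.82 over the 12 arrays.

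Myelin basic protein, the product of Mbp, binds the cytoplasmic faces of the myelin membrane together, and its gene gives several transcripts. Mbp probe 1, designed to transcript variant 6, lay at chr18:79026442-79026501. Mbp probe 2 lay 30762 bases further on, at chr18:79057264-79057323. Probe 1 measured 8.48, 8.21, 9.25, 8.96, 9.32 and 9.59 in lots 1 to 6. Probe 2 measured 17.59, 17.39, 16.72, 17.56, 17.67 and 17.59. Lot 3 was thus the lowest lot for probe 2 and the third highest for probe 1, and the correlation of the probes over the 12 arrays was -0.043. No spot of either was marked as saturated. Mag probe 1, the brightest member probe after Mbp probe 2, was also lowest in lot 3. Whether transcripts or signal level set the Mbp probes apart was not tested.

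The brightest probes of the 9 genes correlated with one another at a median r of 0.71 over the 12 arrays, from -0.36 (Mbp and Mog) to 0.99 (Olig1 and Olig2). These values are descriptions, since control and ACE arrays of a lot share their cells and lots differed in array brightness and scan.

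Other markers of the lineage had a like order of lots. Averaged over the 9 genes, the log2 level was 12.66, 12.60, 12.93, 13.13, 13.38 and 13.53 in lots 1 to 6. Over 56 further genes of the lineage it was 10.43, 10.27, 10.49, 10.69, 10.79 and 10.90. Lot 6 was highest and lot 2 lowest in both. Of the 5 lists that make up these further genes, described below, each was highest in lot 6. The precursor and transcription factor lists were lowest in lot 1, and the growth factor list ranged over 0.19 only.

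Markers of other cells varied between lots as well. The 8 astrocyte genes averaged 13.52 in lot 1, 13.05, 13.14, 13.00 and 12.55 in lots 2 to 5, and 12.42 in lot 6, so they were lowest in the lot where the mean of the 9 genes was highest. The 8 meningeal fibroblast genes were between 11.11 and 11.68 in lots 1 to 3 and between 10.68 and 10.88 in lots 4 to 6. Neuron genes were highest in lot 4 (9.90) and, like the astrocyte genes, lowest in lot 6 (9.27), although their lowest lot was lot 3 with normexp background correction and lot 1 with the deposited table. Microglia genes ranged over 0.36, with lot 6 highest, and 10 skeletal muscle genes over 3.45, with lot 1 highest. The list of 6 tested Schwann cell genes, the myelin-forming cells of peripheral nerve, was highest in lot 1 and ranged over 0.41, or over 0.98 with scaling to the 75th percentile and 0.16 with normexp. Only 5 of its 10 tested probes were well above background on all arrays. The part of these cells in the order of the oligodendrocyte genes was not tested.

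**Figure D2:**
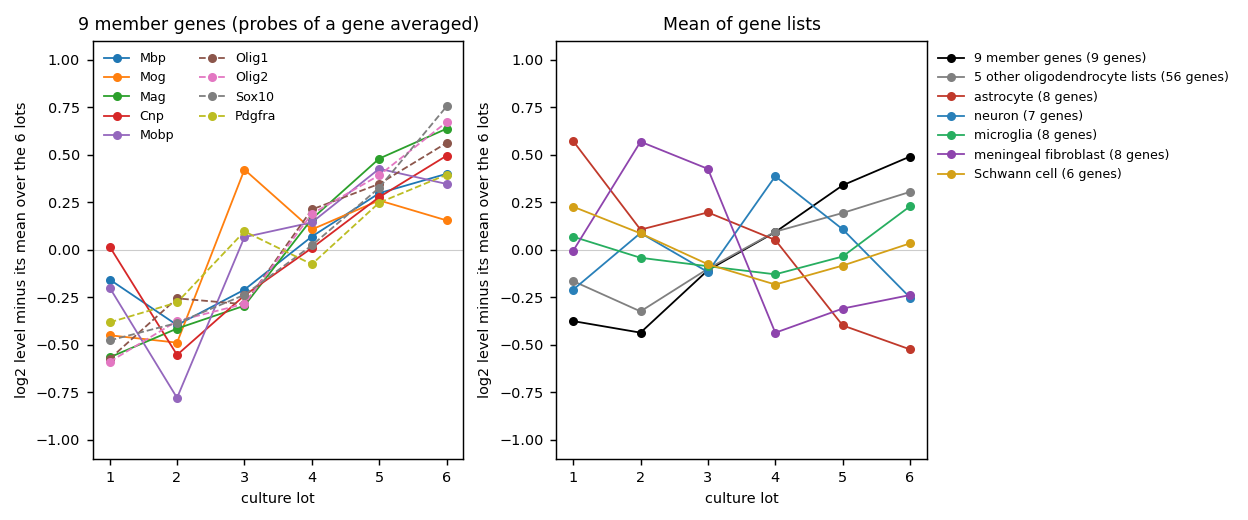
Log2 level minus its mean over the 6 lots (vertical axis) by culture lot (horizontal axis), for each of the 9 genes on the left (solid lines for myelin genes, dashed lines for the others) and for the mean of gene lists on the right. The mean of the 9 genes and that of the other oligodendrocyte genes are highest in lot 6, while the astrocyte list is highest in lot 1 and lowest in lot 6.

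Lots also differed in how the arrays were made and read. Lots 1, 2 and 3 were each scanned in a batch of their own and lots 4 to 6 in 1 batch, and every lot had its own slide, so lot, slide and, for lots 1 to 3, scan batch cannot be told apart. The 75th percentile of the unscaled signal averaged 4328, 2988 and 3640 intensity units in lots 1 to 3 and 1946, 2116 and 2286 in lots 4 to 6. Within the shared batch of lots 4 to 6, the mean of the 9 genes went from 13.13 to 13.53 and that of the astrocyte genes from 13.00 to 12.42. The part of slide and scan batch in the order of lots was not tested. With each array scaled to its 75th percentile instead, lot 5 or 6 was highest for 13 of the 14 probes, as with quantile normalisation, and lot 1 or 2 lowest for 11 in place of 12. The mean of the 9 genes was highest in lot 6 and lowest in lot 2, and that of the astrocyte genes highest in lot 1 and lowest in lot 6, also with the 75th percentile, with normexp background correction, with the deposited table and with outlier spots kept.

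No difference between ACE and control passed the adjusted threshold for any of the 9 genes. None of the 14 probes passed at an adjusted p of 0.05 by limma with the lot as a block (0 of 14, adjusted p from 0.189 to 0.940), and none of the 23796 tested probes did (0%). At an unadjusted p under 0.05, 3 of 14 member probes were counted (21.4%), against 16.6% of all tested probes. Mbp probe 1 and Mag probe 2 were higher in ACE (2 of 14, against 6.90% of all tested probes). Cnp was lower (1 of 14, against 9.73%). The direction was the same in all 6 lots for 2 of 14 probes (14.3%), against 11.7% of the 23580 probes with 6 complete pairs. The median difference was 0.015 over the 14 probes and -0.0050 over all tested probes. The share over both directions and the share with the same direction in all lots lie near the background. The counts by direction are of 2 probes and 1 probe and are not read as a result about the 9 genes.

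The 14 differences lay between -0.13 and 0.18 on the log2 scale, or 1.01-fold to 1.13-fold, and their 95% intervals together reached from -0.25 (Cnp) to 0.33 (Mag probe 2). The control and ACE signals overlapped for every probe (0 of 14 without overlap, against 0.0127% of the probes with 6 complete pairs).

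**Figure D3:**
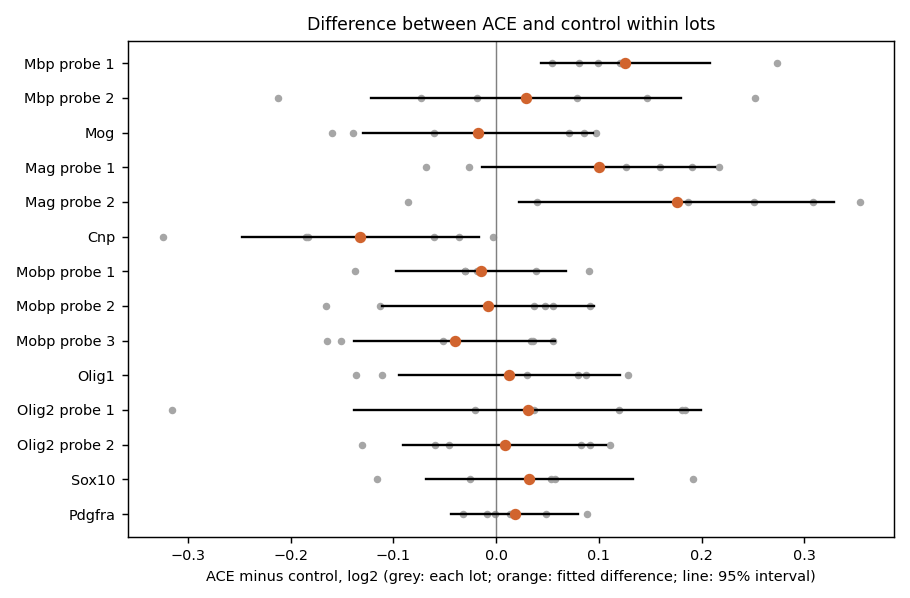
ACE minus control on the log2 scale (horizontal axis) for the 14 probes (vertical axis), with grey points for the 6 lots, orange points for the fitted difference and lines for its 95% interval by limma. The intervals of Mbp probe 1, Mag probe 2 and Cnp leave out 0 before adjustment, and no adjusted p passed 0.05.

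Mbp probe 1 had the lowest p of the 14. Its signal was 8.18 at the lowest, 9.06 at the median and 9.53 at the highest in the 6 control cultures, and 8.24, 9.16 and 9.66 in the 6 ACE cultures. The groups overlapped almost fully, but ACE was the higher culture of each lot, by 0.27, 0.054, 0.081, 0.12, 0.099 and 0.13 in lots 1 to 6. The fitted difference was 0.13 ± 0.034 (SE, n = 6 pairs), with an unadjusted p of 0.0092 and an adjusted p of 0.189 by limma. Without lot 1 it was 0.096, with an adjusted p of 0.205 by limma, and with normexp background correction it was 0.079. Mbp probe 2, on the part of the gene 3' of it, had 16.68, 17.49 and 17.78 in control and 16.76, 17.56 and 17.72 in ACE. It was higher in 3 of 6 lots, and its difference was 0.029 ± 0.063 (SE, n = 6 pairs), with a 95% interval of -0.12 to 0.18.

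Cnp was the only member probe lower in ACE in all 6 lots. Control cultures had 13.33 at the lowest, 13.90 at the median and 14.29 at the highest, and ACE cultures 13.15, 13.71 and 14.29. The differences in lots 1 to 6 were -0.061, -0.18, -0.036, -0.32, -0.19 and -0.0028, so that lot 4 held the largest and lot 6 almost none. The fitted difference was -0.13 ± 0.048 (SE, n = 6 pairs), with an adjusted p of 0.257 by limma.

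The Mag probes, which lie close together on the chromosome, differed in the same direction. Mag probe 2 had 11.87, 12.60 and 13.33 in control and 11.78, 12.71 and 13.58 in ACE, lowest, median and highest. ACE was higher in lots 2 to 6 and lower by 0.086 in lot 1. The fitted difference was 0.18 ± 0.064 (SE, n = 6 pairs), with an adjusted p of 0.257 by limma. Mag probe 1 was higher in 4 of 6 lots, by 0.10 ± 0.047 (SE, n = 6 pairs), with an adjusted p of 0.347 by limma. With scaling to the 75th percentile its difference was 0.058.

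How many member probes were counted at an unadjusted p under 0.05 depended on the lot left out. The count was 4 without lot 1, 1 without lot 2, 4 without lot 3, 1 without lot 4, 1 without lot 5 and 2 without lot 6. The shares of all tested probes were 16.5%, 11.8%, 17.5%, 14.0%, 12.9% and 12.7% without lots 1 to 6. Mbp probe 1 stayed in each of these counts. With the lot as a random block no member probe was counted (0 of 14, against 16.8% of all tested probes), and with no block none was either (0 of 14, against 0.340%).

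The other myelin genes and the lineage genes differed little. Mog had 11.94, 12.62 and 12.96 in control and 11.99, 12.59 and 12.82 in ACE, with a difference of -0.018 ± 0.047 (SE, n = 6 pairs). The Mobp probes had differences of -0.015, -0.0080 and -0.040, each with an interval that held 0. Probe 1 had 11.51, 12.87 and 13.21 in control and 11.48, 12.91 and 13.18 in ACE, lowest, median and highest, and the groups overlapped almost fully. Mobp probe 2 lay 575 bases beyond probe 1, and probe 3 lay 7278 bases beyond probe 2. The 3 probes correlated at r = 0.90 to 0.94. The order of the arrays was thus alike for 3 separate stretches of the gene, while the range of the lot means was 1.70, 0.92 and 1.04.

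The transcription factors Sox10, Olig1 and Olig2 had intervals that held 0. Sox10 was at 13.58, 13.96 and 14.70 in control and 13.56, 13.92 and 14.90 in ACE, and the difference was 0.032 ± 0.042 (SE, n = 6 pairs), or 0.00060 without lot 6. Olig1 differed by 0.013, with an interval of -0.094 to 0.12. Its signal was 13.75, 14.26 and 14.79 in control and 13.64, 14.29 and 14.88 in ACE. The Olig2 probes differed by 0.031 and 0.0083, with 1863 bases between them. Olig2 probe 2 had 13.16, 13.61 and 14.25 in control and 13.03, 13.60 and 14.33 in ACE, so that the groups covered nearly the same range. None had the same direction in all 6 lots.

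Pdgfra was the most precisely bounded of the 9 genes. It was at 11.51, 11.90 and 12.28 in control and 11.51, 11.91 and 12.30 in ACE. The difference was 0.018 ± 0.026 (SE, n = 6 pairs), with a 95% interval of -0.044 to 0.080. A p above the threshold does not show that the groups were alike, but it leaves this interval.

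No further gene of the lineage passed the adjusted threshold either. The 57 genes examined fell into 5 lists: precursor genes, lineage transcription factors, myelin and mature genes, enzymes of myelin lipids, and growth factors with their receptors and inhibitors. The array held 56 of the 57, with 66 tested probes. At an unadjusted p under 0.05, 4 probes were higher and 1 was lower in ACE (7.58% of the 66), against 16.6% of all tested probes, and 0 passed the adjusted threshold. Their median difference was 0.019. The higher count was 6, 0, 3, 2, 2 and 2 without lots 1 to 6. The lower count was 5 without lot 3, 2 without lot 4 and 1 without any other lot. The shares of all tested probes without each lot, both directions together, are those given above for the members.

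**Figure D4:**
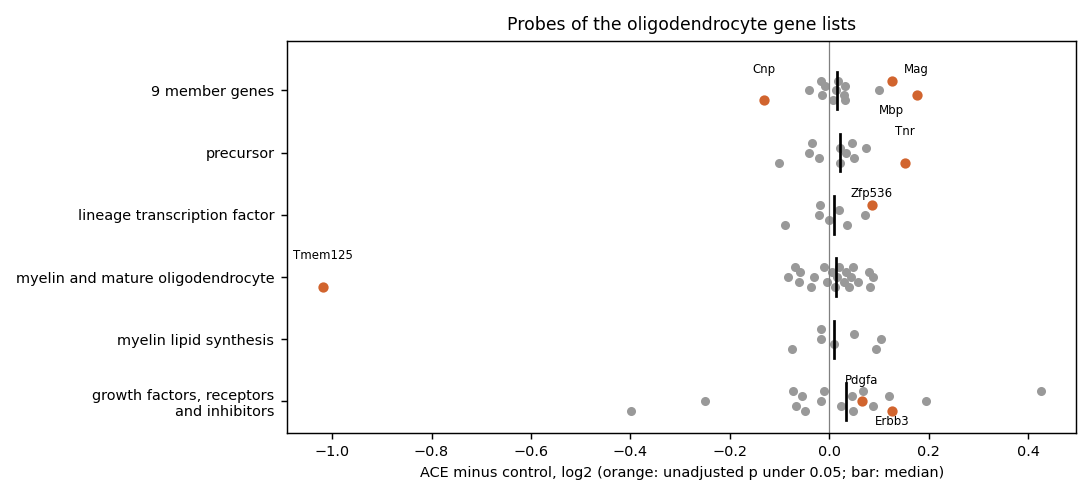
ACE minus control on the log2 scale (horizontal axis) of each tested probe of the 9 genes and of the 5 further lists (vertical axis), with orange points for an unadjusted limma p under 0.05, grey points for the others and a bar for the list median. Medians lie between 0.0095 and 0.035. Tmem125 lies furthest from 0 at -1.02, a value that was -0.19 with normexp background correction. Shh (0.42) and Thrb (-0.40) come next, neither with an unadjusted p under 0.05.

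Of the precursor list, 1 of 11 probes was higher and 0 lower at an unadjusted p under 0.05 (9.09%, against 16.6% of all tested probes). It was a dim probe of Tnr, which encodes tenascin-R, a matrix protein made by oligodendrocytes and their precursors. That probe differed by 0.15 ± 0.049 (SE, n = 6 pairs), with an adjusted p of 0.219 by limma, and by 0.082 with scaling to the 75th percentile. The bright probe of Tnr differed by -0.021 and was lower in 4 of 6 lots, so the probes of this gene differed in direction. Gpr17, a receptor of committed precursors, differed by 0.050 (0.018 with scaling to the 75th percentile and 0.027 with normexp), Enpp6, a choline phosphodiesterase of newly formed oligodendrocytes, by -0.040, and Matn4, a matrilin, by -0.10 (0.021 without lot 4). None of these 3 had an unadjusted p under 0.05.

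Of the 8 probes for lineage transcription factors, 1 was higher and 0 lower (12.5%, against 16.6% of all tested probes). It belonged to the zinc finger gene Zfp536, with 0.085 ± 0.032 (SE, n = 6 pairs) and an adjusted p of 0.265 by limma. Sox8, a relative of Sox10, differed by 0.035, Nkx6-2 by -0.020 and St18 by -0.089 (-0.021 without lot 5), each with an interval that held 0.

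Of 22 probes for myelin and mature genes, 0 were higher and 1 was lower (4.55%, against 16.6% of all tested probes). The lower one, for the transmembrane protein gene Tmem125, had a difference of -1.02 ± 0.32 (SE, n = 6 pairs) and an adjusted p of 0.214 by limma. Its signal, 3.22 to 4.94 in control, cleared the background limit on 2 arrays of each group, and with normexp background correction the difference was -0.19, so its size is uncertain. Anln (anillin), S1pr5 (a sphingosine phosphate receptor of mature oligodendrocytes) and Klk6 (a secreted protease) differed by 0.081, -0.083 and 0.089. S1pr5 was at -0.13 without lot 3, and Klk6 at 0.045 without lot 1 and 0.040 with scaling to the 75th percentile.

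None of the 7 probes for myelin lipid enzymes was counted in either direction (0%, against 16.6% of all tested probes). Gal3st1, which sulphates galactosylceramide, differed by 0.093, Fa2h, which hydroxylates its fatty acid, by 0.10 with one probe (0.17 without lot 1 and 0.038 with scaling to the 75th percentile) and 0.0097 with the brighter one, Ugt8, which makes galactosylceramide, by -0.075 (-0.0044 without lot 5) and Degs1, a ceramide desaturase, by -0.017.

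Among 18 probes for growth factors, receptors and inhibitors, 2 were higher and 0 lower (11.1%, against 16.6% of all tested probes). Pdgfa, the ligand of the receptor encoded by Pdgfra, differed by 0.066 ± 0.026 (SE, n = 6 pairs), with an adjusted p of 0.276 by limma. Erbb3, a neuregulin receptor, differed by 0.13 ± 0.050 (SE, n = 6 pairs), with an adjusted p of 0.282 by limma, and by 0.060 with scaling to the 75th percentile. Lingo1, an inhibitor of myelination, differed by -0.25 ± 0.14 (SE, n = 6 pairs), or by -0.099 without lot 4, where the pair differed by -1.01. Thra, a thyroid hormone receptor, differed by -0.072, or by -0.11 without lot 3. Neither of the latter had an unadjusted p under 0.05.

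The means of the lists of other cells are given as descriptions, since their differences were not tested. The mean of the astrocyte genes differed by -0.052 between ACE and control, with ACE lower in 5 of 6 lots. That of the neuron genes differed by 0.088, with ACE higher in 5 of 6 lots. With scaling to the 75th percentile the neuron mean differed by 0.051, with ACE higher in 4 of 6 lots. The mean of the microglia genes differed by 0.043 (0.027 with scaling to the 75th percentile), with ACE higher in 3 of 6 lots. That of the muscle genes differed by -1.21, with ACE lower in 5 of 6 lots. The mean of the Schwann cell genes differed by 0.067, or by -0.022 with scaling to the 75th percentile. That of the meningeal fibroblast genes differed by -0.040, from 0.56 in lot 4 to -0.47 in lot 6. The microglia mean was -0.018 without lot 1. Lot 2 held the largest part of the muscle difference (-4.02), and without it the mean was -0.65. Leaving out these lots was chosen after seeing the data. At an unadjusted p under 0.05, 1 of 15 astrocyte probes (6.67%) and 1 of 9 neuron probes (11.1%) were counted, against 16.6% of all tested probes. The muscle list had 3 of 11 (27.3%), the Schwann cell list 1 of 10 (10%) and the fibroblast list 0 of 9 (0%). Of 11 microglia probes, 3 were higher and 1 was lower at an unadjusted p under 0.05 (36.4%, against 16.6% of all tested probes), and 0 passed the adjusted threshold by limma. They included a probe of Csf1r, a receptor for colony-stimulating factor, with 0.28, while its brighter probe had -0.018, and the chemokine receptor gene Cx3cr1, with -0.35. The part of these cells in the values of the oligodendrocyte genes was not tested.

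The probes whose pattern over the 12 arrays was most like the mature genes included further genes of myelin. The mean of the standardised signals of Mbp, Mog, Mag, Cnp and Mobp correlated at over 0.9 with 204 of 20058 probes (1.02%). The 10 genes with the highest r were Akr7a3 (0.991), Plekhg3 (0.982), Fa2h (0.981), Ugt8 (0.980), Gjc3 (0.976), Rhob (0.976), Frmd5 (0.973), Gpr62 (0.971), Shroom2 (0.967) and Unc5b (0.967). Fa2h and Ugt8 are the lipid enzymes named above and Gjc3 encodes a glial connexin. For the mean of Olig1, Olig2 and Sox10 the nearest were Ccnjl (0.996), Stard13 (0.994), Atg4al1 (0.994), Vamp1 (0.990) and Pbx3 (0.988), with 470 probes over 0.9. For Pdgfra they were Fam57a (0.986), Casr (0.986), Efna1 (0.985), Cdr2 (0.981) and Rps6ka1 (0.980), with 371 probes over 0.9. The 12 arrays share 6 lots, so these values describe the order of lots.

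The stretch before the start of Cnp is shown because Cnp was the one member lower in every lot and because it holds CAGCTG, one form of the E-box, a motif of basic helix-loop-helix factors. Other forms of the E-box were not searched. It is 250 bases of the plus strand at chr10:86011254-86011503 of build GRCr8, from RefSeq, with CAGCTG in capitals.
Cnp promoter: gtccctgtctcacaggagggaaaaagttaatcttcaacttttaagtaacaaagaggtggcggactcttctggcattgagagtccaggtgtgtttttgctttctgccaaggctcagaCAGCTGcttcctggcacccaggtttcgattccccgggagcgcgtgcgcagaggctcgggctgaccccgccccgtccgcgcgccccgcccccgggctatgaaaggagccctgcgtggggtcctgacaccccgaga
CAGCTG, which reads the same on both strands, began 134 bases before the start. It occurred in 4007 of 33469 promoters of this length, and the Sox core AACAAT, or ATTGTT on the other strand, in 3459 (10.3%). Of the 6 member genes with a promoter in the table, 1 of the Mbp entries held 2 Sox cores and 1 CAGCTG. Neither AACAAT nor CAGCTG, on either strand, was found before the starts of Mag, Mobp, Olig2 and Pdgfra. A match describes these letters only.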

How the data were processed

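RNA of 12 cultures was hybridised to 1-colour rat arrays (Cy3). Per the file headers, the authors extracted spot intensities with Agilent Feature Extraction 11.0.1.1 (lot 1) or 11.5.1.1 (other lots). That software subtracted background without scaling one array to another. A second deposited source, a table of log2 values that were quantile normalised and centred on each probe's median, correlated with the values used here at 0.997 to 0.999 per array and served as an alternative.

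Control spots were left out, spots marked as outliers (240 to 490 per array) were set to missing, and log2 processed intensities were quantile normalised, then averaged over the spots of a probe. Probes above the 20th percentile of their array on at least 7 of 12 arrays, with at least 4 complete pairs, were kept. ACE was compared with control by a two-sided limma test (version 3.58.1, R 4.3.3), with the replicate number as a block, adjusted after Benjamini-Hochberg over the 23796 tested probes. Replicate numbers pair the cultures because the study made both from the same cells. Deviations from the group means correlated at 0.30 to 0.84 for arrays sharing a number and -0.35 to 0.36 otherwise. No arrays held identical values (0). On simulated data with 200 of 29938 probes changed, limma recovered 64% of 1.5-fold and 77% of 2.0-fold changes, and 4.08% of calls were false. The simulated probes were not filtered and had independent noise, and the changes were larger than the 1.13-fold of any member. These shares therefore do not describe how the test acts on the member probes.

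The 75th percentile of the signal was 1803 to 4384 units per array, and 75.4% to 91.0% of gene spots were well above background. The number of arrays limits the precision. Every slide carried its control culture at place 1 and its ACE culture at place 3, so exposure cannot be told apart from place. The exact two-sided signed-rank test, with a smallest p of 0.031 for 6 pairs, was an alternative. Other alternatives were the block, scaling, background, filter, batch and each pair left out.

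The members and gene lists were chosen with earlier results of these data known. Named list genes were the 2 with the lowest p per direction and list. Likeness was ranked by Pearson r over probes well above background on all arrays, 1 probe per gene, for the 10 or 5 nearest named genes. Car2 was matched by accession, and Nkx2-2 and Rbfox3 were not matched. Nicotine and imidacloprid cultures were not analysed here. Plots used Python 3.11.15 and matplotlib 3.10.9.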

Additional observations from a re-analysis of the deposited data

Results flagged for a closer look

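Of 42 sets of 6 values (the control signals, the ACE signals and the lot differences of the 14 probes), 3 held a value far from the other 5, where chance gives about 5%. The control culture of lot 3 had 16.68 for Mbp probe 2, against 17.42 to 17.78 in the other control cultures. The ACE culture of lot 3 was likewise the lowest of its group. The control culture of lot 2 had 13.34 for Mobp probe 2, against 13.93 to 14.28 in the others. For Mbp probe 1 the difference between ACE and control was 0.27 in lot 1, against 0.054 to 0.13 in the other lots.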

How the results depend on the processing

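No member probe passed the adjusted threshold under any alternative. Without the replicate block, 0 member probes, 81 probes in all and 0 higher probes of the further lists had an unadjusted p under 0.05. With a random replicate block, 5 probes in all passed the adjusted threshold, 0 member probes had an unadjusted p under 0.05, and 2 further list probes were higher. The higher list count was 2 with scaling to the 75th percentile and 7 with normexp, where 17.7% and 18.1% of all tested probes had an unadjusted p under 0.05 in either direction. The lower count was 0 over probes well above background on all arrays (18.7% of all) and 2 within the scan batch of lots 4 to 6 (14.0%). Scaling to the 75th percentile moved the median of all probes to -0.034 and the share of higher probes among those with an unadjusted p under 0.05 to 19.1%, from 41.5%, while the deposited table gave 51.5%.

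Direction turned for small differences of members. These were Mbp probe 2 (-0.020) and Olig2 probe 1 (-0.050) with the 75th percentile, Olig2 probe 2 (-0.011) with normexp, and Mobp probe 2 (0.0017) with the deposited table. Within lots 4 to 6 they were Mbp probe 2 (-0.028), Mog (0.0028), Mobp probe 1 (0.014) and Mobp probe 2 (0.047). Among list genes, Matn4 was at 0.00086 with normexp and Klk6 at -0.0038 within lots 4 to 6. The cause was not tested.

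Leaving out each lot in turn, the unadjusted count ran from 1 to 4 for members, from 0 to 6 for higher and from 1 to 5 for lower list probes. The differences ran from -0.016 to 0.077 for Mbp probe 2, -0.041 to 0.011 for Mog, -0.036 to 0.0099 for Mobp probe 1, -0.028 to 0.024 for Mobp probe 2, -0.010 to 0.043 for Olig1, -0.012 to 0.036 for Olig2 probe 2, 0.00033 to 0.10 for Olig2 probe 1, 0.00060 to 0.062 for Sox10, 0.0039 to 0.028 for Pdgfra, -0.060 to -0.016 for Mobp probe 3, 0.045 to 0.13 for Klk6, 0.012 to 0.058 for Sox8, -0.053 to -0.014 for Enpp6, 0.074 to 0.17 for Fa2h, -0.13 to -0.056 for S1pr5, -0.11 to -0.053 for Thra, -0.035 to -0.0044 for Degs1, -0.17 to 0.021 for Matn4, -0.041 to 0.0027 for Nkx6-2 and -0.018 to 0.072 for the mean of the microglia list. The differences of Mbp probe 1, both Mag probes, Cnp, Sox10, Pdgfra and Mobp probe 3 kept their direction under every alternative. Averaging the probes of a gene left 2 of the 9 genes, Cnp and Mag, with an unadjusted p under 0.05, against 16.1% of 20561 genes, and 0 after adjustment. Mbp, averaged over its probes, differed by 0.077, with an unadjusted p of 0.136 by limma. Of the 66 list probes, 62 were well above background on all arrays, and the values of the other 4 are limited by their signal.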
